A study of Caenorhabditis elegans with 33 samples.

Results

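The messenger RNA of alg-1(gk214) and alg-2(ok304) Caenorhabditis elegans was compared directly, 3 libraries against 3, at the L4 stage, the last larval stage before the adult. Genes whose mean FPKM (fragments scaled to transcript length and library size) reached 1 in either mutant were taken, which gave 14430 of the 20517 genes in the table. ALG-1 and ALG-2 are closely related Argonautes, the proteins that hold a microRNA and bring it to target messages. In worms most microRNAs are loaded into this pair, which overlap in function, and loss of both is lethal to the embryo. Loss of alg-1 alone is known for delayed larval development and defects of the heterochronic pathway, the gene cascade in which the lin-4 and let-7 microRNAs time cell fates, whereas loss of alg-2 alone is known to be milder.

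The series holds 33 samples, of which 15 are L4 mRNA libraries. They come from alg-1(gk214), with its mutation on chromosome X, alg-2(ok304), with its mutation on chromosome II, wild type (N2) and the alg-5 mutants ram2 and tm1163, with 3 libraries per genotype. All worms were fed Escherichia coli OP50 on plates, and whole late L4 animals were frozen. Worms were taken 49 h after synchronized L1 larvae were plated, but those of alg-1(gk214) at 53 h, to bring them to the same stage. Collection time and genotype therefore cannot be told apart here, and each gene is represented by 1 mutant allele. The labels do not say that replicates came from separate cultures, so p-values measure the spread between these samples, which may be technical. Because whole worms were sequenced, fewer cells of a type and less RNA per cell cannot be told apart.

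FPKM sums of the 6 libraries lay between 1182262 and 1283891, between 13233 and 13727 genes reached 1 FPKM, and libraries of 1 group correlated with each other at a mean r of 0.918 to 0.948 across genes. The read depth is unknown. Differences are log2(FPKM + 1) in alg-1(gk214) minus alg-2(ok304), fitted by limma with a standard error (SE), and adjusted p-values are limma's after Benjamini-Hochberg adjustment over all 14430 genes. A gene was called where that p was under 0.05.

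Each targeted gene was low in its own mutant, and the paralog that remained was not. alg-1 stood at 10.7, 16.3 and 12.1 FPKM in the alg-1(gk214) libraries and at 31.9, 41.7 and 42.9 FPKM in the alg-2(ok304) libraries. The groups did not overlap, and alg-1 was lower by 1.51 log2 units in alg-1(gk214) (difference -1.51, SE 0.172, adjusted p = 0.000387). alg-2 stood at 16.1, 25.2 and 23.9 FPKM in alg-1(gk214) and at 1.94, 2.15 and 2.10 FPKM in alg-2(ok304). All 3 alg-2(ok304) values lay far below the others, a difference of 2.87 (SE 0.213, adjusted p = 1.24e-05). Both calls held under each of 17 alternative settings of the analysis.

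The gene that remained intact was at or above the wild type level in each mutant. Wild type larvae had 30.3 ± 2.05 FPKM of alg-1 (SD, n = 3), beside 38.8 ± 6.03 in alg-2(ok304). For alg-2, wild type had 15.3 ± 1.96 FPKM, beside 21.7 ± 4.94 in alg-1(gk214). These wild type levels are given for reference and were not tested. alg-5, a further Argonaute gene, had 10.6 ± 3.75 FPKM in alg-1(gk214) and 9.33 ± 0.392 in alg-2(ok304) and was not called (adjusted p = 0.882). Of the 20 tested genes of the microRNA machinery, which include the processing enzymes drsh-1, pash-1 and dcr-1 and the Argonaute partners ain-1 and ain-2, alg-2 was the 1 called higher and alg-1 the 1 called lower. Over all tested genes, 0.707% were called higher and 0.998% lower. Of 12 tested genes next to alg-1 and alg-2 in the RefSeq order (assembly WBcel235), 3 on each side, none was called by limma. The nearest to it was meg-1, a gene of germ granule assembly, at 1.74, 1.94 and 2.48 FPKM in alg-1(gk214) and 0.243, 0.359 and 0.322 FPKM in alg-2(ok304), which did not overlap (adjusted p = 0.0672, passing under 4 of 16 alternatives).

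**Figure D1:**
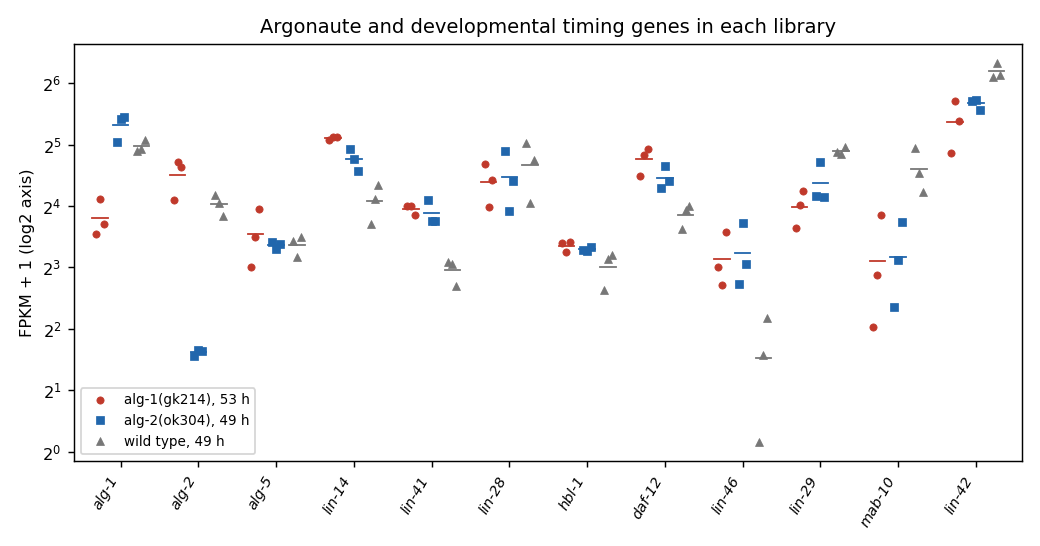
FPKM plus 1 on a log2 axis for the Argonaute genes and 9 developmental timing genes, 1 point per library and a bar at the mean of 3, for alg-1(gk214), alg-2(ok304) and wild type. alg-1 and alg-2 are the genes at which the mutants separate widely, and none of the 9 timing genes was called.

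None of the 17 tested heterochronic genes was called. The background was 246 called genes, or 1.70% of those tested. At an unadjusted p under 0.05, 0 of the 17 passed either, and their median difference was -0.09, with single differences from -0.37 to 0.48. lin-14, the transcription factor that promotes early larval fates and is repressed by lin-4, had 32.7, 33.9 and 33.9 FPKM in alg-1(gk214) and 29.4, 26.3 and 22.7 in alg-2(ok304). The groups did not overlap, with alg-1(gk214) higher, as for 10.3% of all tested genes, and the difference was 0.35 (SE 0.182, adjusted p = 0.388). Wild type had 15.9 ± 3.67 FPKM of lin-14, and the alg-1(gk214) libraries lay above all 12 other L4 libraries, as at 2.44% of tested genes.

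No gene named here around the let-7 step was called either. lin-41, an RNA-binding repressor of adult fates and a target of let-7, had 15.0, 15.0 and 13.5 FPKM in alg-1(gk214) and 16.1, 12.5 and 12.6 in alg-2(ok304), beside 6.75 ± 1.13 in wild type. The groups overlapped, with a difference of 0.08 (SE 0.242). lin-29, the zinc-finger factor that triggers the adult switch, had 11.5, 15.2 and 17.9 FPKM in alg-1(gk214) and 17.0, 25.3 and 16.7 in alg-2(ok304), beside 28.7 ± 1.15 in wild type. Its partner mab-10 had 7.60 ± 5.28 FPKM in alg-1(gk214) and 8.04 ± 4.11 in alg-2(ok304), beside 23.2 ± 6.01 in wild type. The mutants overlapped at both genes (adjusted p of 0.379 and 0.91).

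The other timing genes gave the same picture. daf-12, a nuclear hormone receptor, had 26.2 ± 4.22 FPKM in alg-1(gk214) and 20.99 ± 2.88 in alg-2(ok304), beside 13.5 ± 1.94 in wild type. lin-46, which acts downstream of lin-28, had 7.82 ± 2.74 and 8.40 ± 3.43 FPKM, beside 1.87 ± 1.71 in wild type. lin-42, the worm relative of the Period clock gene, had 40.1 ± 11.5 and 49.9 ± 3.17 FPKM, beside 72.0 ± 6.44 in wild type. Here too the mutants overlapped, with differences of 0.30 (SE 0.188) for daf-12, -0.08 (SE 0.489) for lin-46 and -0.35 (SE 0.212) for lin-42. lin-28, an RNA-binding protein that blocks let-7 processing, had 20.0 ± 4.95 and 21.1 ± 7.34 FPKM, and hbl-1, a zinc-finger factor of the early larva, 9.22 ± 0.593 and 8.81 ± 0.209 (adjusted p of 0.964 and 0.948). A p that misses the threshold does not show that levels were equal. None of 16 tested genes reported as targets of lin-4, the let-7 family or other microRNAs was called, and none of 10 regulators of the molting cycle. Their median differences were -0.05 and -0.13, and 1 of the 16 and 0 of the 10 had an unadjusted p under 0.05. No member of these 3 lists was called under any of the 17 alternatives.

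Across all genes a small share was called. In alg-1(gk214), 102 genes were called higher and 144 lower, while 2158 genes had an unadjusted p under 0.05. By over 2-fold on the log2(FPKM + 1) scale, 74 genes were higher and 80 lower, and by over 4-fold 23 and 15. In all 246 the 3 libraries of a mutant did not overlap with those of the other, beside 10.3% of all tested genes that lay apart with alg-1(gk214) higher and 10.7% with it lower. A lack of overlap at a called gene therefore adds nothing to its call. The median size was 1.36 for genes called higher and 1.03 for those called lower, and the median level was 28.0 and 71.5 FPKM, beside 14.9 FPKM over all tested genes. Of the 13136 genes with at least 1 FPKM in both mutants, 87 were called higher and 137 lower. The 683 genes that reached 1 FPKM only in alg-1(gk214) held 15 of the calls, and the 611 that reached it only in alg-2(ok304) held 7. Leaving out 1 of the 6 libraries gave 46 to 76 genes called higher and 59 to 116 lower, fewest without alg-2(ok304) replicate 3.

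**Figure D2:**
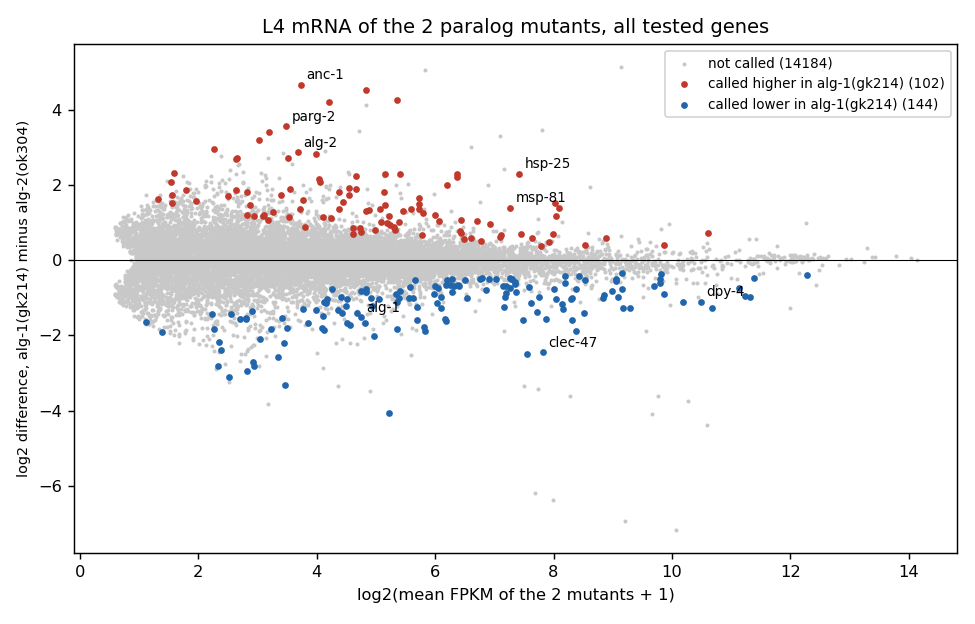
Each point is 1 of the 14430 tested genes, with the log2 of the mean FPKM of the mutants plus 1 on the horizontal axis and the log2(FPKM + 1) difference, alg-1(gk214) minus alg-2(ok304), on the vertical axis. Coloured points are the 102 genes called higher and the 144 called lower, and several grey points lie farther from 0 than any called gene. anc-1 is drawn at the fitted difference against a group listed at 0.

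The 9 libraries of the other genotypes, taken at 49 h like those of alg-2(ok304), describe which mutant lay apart. Only alg-1(gk214) was taken at 53 h, so its distance from the other 12 libraries cannot be told apart from collection time. A gene can lie apart in both mutants and count for each, as gst-28 did. Among the 102 genes called higher in alg-1(gk214), all 3 alg-1(gk214) libraries lay above the other 12 L4 libraries in 45 (44.1%), and all 3 alg-2(ok304) libraries lay below the other 12 in 44 (43.1%). Neither mutant stood apart from the other 12 in 14 genes (13.7%). Among the 144 called lower, alg-1(gk214) lay below the other 12 in 93 (64.6%), alg-2(ok304) lay above the other 12 in 31 (21.5%), and neither stood apart in 21 (14.6%). Over all tested genes these shares were 2.44% and 2.76% for alg-1(gk214) above and below, and 1.94% and 1.75% for alg-2(ok304) above and below. The called genes were picked from the same libraries, so these shares describe them and are no test.

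**Figure D3:**
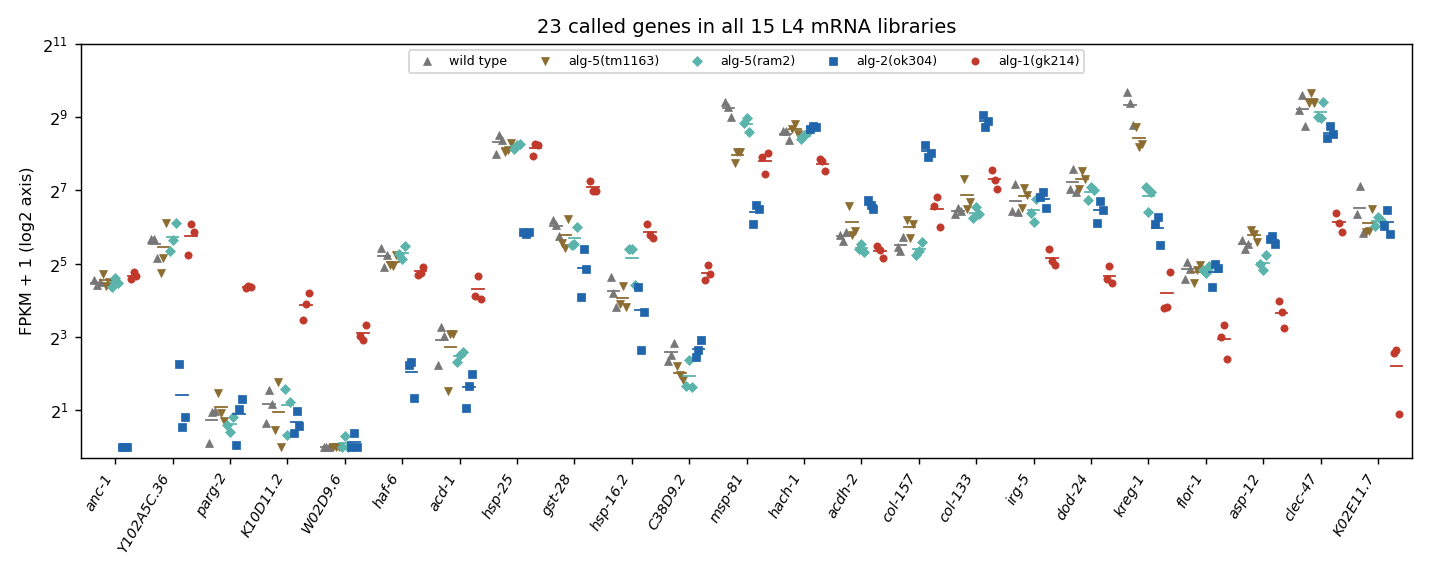
FPKM plus 1 on a log2 axis for the 23 named genes, other than alg-1 and alg-2, whose call held under every alternative, in all 15 L4 libraries, 1 point per library and a bar at the mean of 3. anc-1, haf-6, hsp-25 and Y102A5C.36 are low in alg-2(ok304), parg-2 and W02D9.6 are high in alg-1(gk214), K02E11.7, clec-47, asp-12 and flor-1 are low in alg-1(gk214), and col-133 and col-157 are highest in alg-2(ok304).

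Among the genes higher in alg-1(gk214), a first set had its alg-2(ok304) libraries below all 12 others. anc-1, which encodes a giant protein that anchors nuclei to the cytoskeleton, was listed at 0 in all 3 alg-2(ok304) libraries and had 23.1, 26.1 and 24.4 FPKM in alg-1(gk214). The other 9 libraries lay between 19.6 and 25.2 FPKM (adjusted p = 1.95e-09). hsp-25, a small heat shock protein gene, had 243.0, 306.6 and 303.0 FPKM in alg-1(gk214) and 56.7, 55.4 and 57.5 in alg-2(ok304). Its alg-2(ok304) values lay below all other libraries, with wild type at 317.3 ± 56.9, and the mutants differed by 2.30 (SE 0.131, adjusted p = 5.33e-07). haf-6, an ABC transporter gene needed for efficient RNA interference, had 24.8, 25.7 and 29.1 FPKM in alg-1(gk214) and 3.71, 4.00 and 1.52 in alg-2(ok304). The difference was 2.82 (SE 0.236, adjusted p = 2.82e-05), and wild type had 35.8 ± 6.54 FPKM. Y102A5C.36 had 36.4, 66.3 and 57.0 FPKM in alg-1(gk214) and 3.75, 0.448 and 0.748 in alg-2(ok304), again with wild type near alg-1(gk214) at 44.9 ± 8.71. The difference was 4.52 (SE 0.427, adjusted p = 7.65e-05). nspa-8, of a nematode-specific peptide family, had 55.1, 89.7 and 76.8 FPKM in alg-1(gk214), 0, 16.3 and 2.34 in alg-2(ok304) and 258.2, 279.4 and 102.7 in wild type (adjusted p = 0.00891), so that alg-1(gk214) also lay below wild type there. The calls of anc-1, hsp-25, haf-6 and Y102A5C.36 held under every alternative that tested them, and that of nspa-8 failed with only the 6 libraries in the model (adjusted p = 0.0805).

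In a further set the alg-1(gk214) libraries lay above all 12 others. parg-2, a gene for an enzyme that removes poly(ADP-ribose), had 19.0, 20.1 and 19.4 FPKM in alg-1(gk214) and 0.0376, 1.03 and 1.47 in alg-2(ok304). With wild type at 0.650 ± 0.508 FPKM, alg-1(gk214) stood above all 12 other libraries, and the mutants differed by 3.56 (SE 0.383, adjusted p = 0.000243). K10D11.2 had 9.94, 13.8 and 17.3 FPKM against 0.305, 0.955 and 0.474, a difference of 3.21 (SE 0.474, adjusted p = 0.00317). W02D9.6 had 7.15, 6.47 and 8.96 FPKM and was listed at 0 in 2 alg-2(ok304) libraries, with 0.286 in the third (adjusted p = 0.000159). acd-1 and delm-2, genes of the DEG/ENaC sodium channel family that lie next to each other, rose together. acd-1 had 16.3, 24.4 and 15.4 FPKM against 1.07, 2.18 and 2.95 (adjusted p = 0.00489), and delm-2 had 8.74, 9.98 and 11.2 against 0.999, 0.541 and 0.476 (adjusted p = 0.00233). The mutants did not overlap at either gene, and delm-2 lost its call with a pseudocount of 0.1 FPKM (adjusted p = 0.0587). hsp-16.2, a small heat shock protein gene used as a stress reporter, had 67.3, 53.5 and 51.0 FPKM against 19.6, 5.26 and 11.8, with wild type at 18.1 ± 5.34 and alg-5(ram2) between, at 41.0, 41.2 and 20.5. The difference was 2.29 (SE 0.382, adjusted p = 0.00775).

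Glutathione S-transferases, enzymes that conjugate glutathione to toxic compounds, were among the families with the most calls. Of 38 tested gst genes, 6 were called higher and 0 lower, beside 0.707% and 0.998% of all genes. Of the called genes, 5 follow one another in the RefSeq order: gst-26, gst-27, gst-28, gst-29 and gst-39. This was the longest of 8 runs of neighbours called in the same direction, which held 19 of the 246 called genes. The other called gst gene, gst-32, had 2.42, 7.33 and 1.64 FPKM in alg-1(gk214). It was listed at 0 in all alg-2(ok304) and wild type libraries (adjusted p = 0.0384). All 6 have sequence names that begin with Y53F4B, and the median difference over the 38 gst genes was 0.23. gst-28 had 152.8, 125.3 and 126.3 FPKM in alg-1(gk214) and 16.1, 41.1 and 27.7 in alg-2(ok304), and wild type lay between at 63.9 ± 9.78. The difference was 2.30 (SE 0.282, adjusted p = 0.000707). gst-39 had 134.9 ± 9.04 and 28.8 ± 4.73 FPKM (adjusted p = 0.000898), gst-26 had 387.7 ± 82.3 and 133.2 ± 9.42, and gst-27 had 394.9 ± 23.8 and 152.0 ± 27.4. The levels of the 5 neighbours are uncertain one by one, since reads of close copies may be split among them. gst-29 had 24.1, 17.1 and 5.86 FPKM in alg-1(gk214), against 0, 1.68 and 0, and lost its call without alg-1(gk214) replicate 1 or without alg-2(ok304) replicate 1 or 3 (adjusted p up to 0.0685). T22B7.8 had 33.9, 1.52 and 70.0 FPKM in alg-1(gk214) and was listed at 0 in all alg-2(ok304) and wild type libraries (adjusted p = 0.0221). It kept its call without alg-1(gk214) replicate 2 but not without any other of the 6 libraries (up to 0.0808). With only the 6 libraries in the model T22B7.8 was not called either (adjusted p = 0.134).

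**Figure D4:**
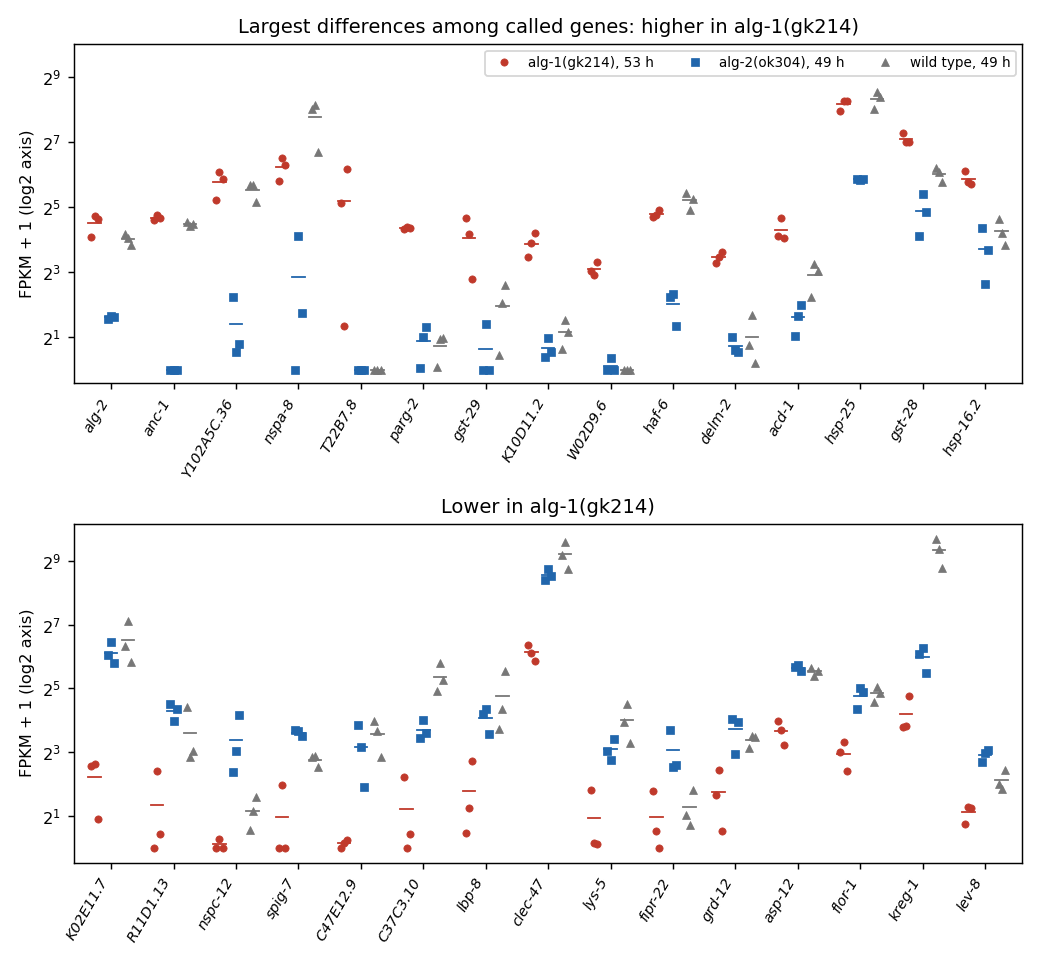
FPKM plus 1 on a log2 axis for 15 genes called higher in alg-1(gk214) (upper panel) and 15 called lower (lower panel), 1 point per library and a bar at the mean of 3. They have the largest differences when no more than 2 genes of a class and 4 known by a sequence name are taken in each direction. Wild type sits with alg-1(gk214) at anc-1, haf-6 and hsp-25, with alg-2(ok304) at K02E11.7, asp-12 and flor-1, and far above both at kreg-1.

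The large decreases in alg-1(gk214) included genes for a lectin, a protease and a neurotransmitter receptor. K02E11.7 fell furthest among the named genes, with 4.85, 5.19 and 0.865 FPKM in alg-1(gk214) and 64.7, 87.0 and 54.9 in alg-2(ok304). Wild type had 91.3 ± 41.5 FPKM, and the difference was -4.07 (SE 0.406, adjusted p = 0.000124). clec-47, of the C-type lectin family, had 82.0, 68.7 and 56.9 FPKM against 341.5, 430.5 and 368.1, with wild type at 597.5 ± 171.5. The groups lay far apart, with a difference of -2.45 (SE 0.198, adjusted p = 2.13e-05). asp-12, an aspartyl protease gene, had 14.6, 11.8 and 8.43 FPKM against 49.9, 52.6 and 45.5 (-2.02, SE 0.178, adjusted p = 4.06e-05), and wild type had 45.4 ± 4.12. flor-1 had 6.71 ± 2.34 against 26.4 ± 6.11 FPKM (adjusted p = 0.00119). kreg-1 was low in both mutants beside wild type and lowest in alg-1(gk214), at 12.9, 13.0 and 26.1 FPKM against 66.3, 76.5 and 44.1, with wild type at 645.3 ± 197.4. Its difference between the mutants was -1.83 (SE 0.305, adjusted p = 0.00775). lev-8, a nicotinic acetylcholine receptor subunit gene, had 1.15 ± 0.414 against 6.54 ± 1.01 FPKM (adjusted p = 0.00796). Among the genes of this paragraph, lev-8 alone missed the threshold under an alternative, with only the 6 libraries in the model (adjusted p = 0.0591).

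Of genes known only by a sequence name, 3 more fell at high level and were picked after their values were seen. T13F3.6 had 52.1, 60.9 and 54.6 FPKM in alg-1(gk214) against 290.7, 370.1 and 296.3, with wild type between at 158.6 ± 38.9 (-2.49, SE 0.189, adjusted p = 1.24e-05). C30G12.2 had 23.5 ± 3.59 against 88.3 ± 1.83 FPKM (adjusted p = 2.82e-05), and H23N18.5 had 140.8 ± 28.5 against 522.3 ± 73.2 (adjusted p = 0.00623). The mutants did not overlap at these genes, whose calls held without any 1 library (up to 0.0349).

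Other large decreases named here were in genes of low level, and each call was lost in at least 1 fit that left out a library. nspc-12, of a nematode-specific peptide family, had 0, 0.210 and 0 FPKM in alg-1(gk214) against 4.21, 7.15 and 16.9 (adjusted p = 0.00947, and 0.0505 without alg-2(ok304) replicate 3). lys-5, a lysozyme gene, had 2.47, 0.0992 and 0.0802 FPKM against 7.17, 5.71 and 9.66 and was not called without alg-1(gk214) replicate 2 or 3 or alg-2(ok304) replicate 1 or 3 (adjusted p up to 0.0866). R11D1.13 had 0, 4.29 and 0.345 FPKM against 21.6, 14.8 and 19.4 and failed without alg-1(gk214) replicate 1 or 3 or alg-2(ok304) replicate 1 or 3 (up to 0.0847). In each case the mutants did not overlap, as at all 246 called genes. lbp-8, a gene for a lipid-binding protein that carries signals from lysosome to nucleus, had 0.359, 1.37 and 5.62 FPKM against 17.5, 19.5 and 10.8, and passed only with alg-1(gk214) replicate 3 as the library left out (otherwise up to 0.0962). C37C3.10 had 3.60, 0 and 0.348 FPKM against 9.84, 15.0 and 11.2, and passed only with alg-1(gk214) replicate 1 left out (otherwise up to 0.0935). C47E12.9 had 0, 0.113 and 0.182 FPKM against 13.3, 7.84 and 2.70, and passed only with alg-2(ok304) replicate 3 left out (otherwise up to 0.119). These calls thus depended on most libraries being present. spig-7 had 0, 2.89 and 0 FPKM against 11.9, 11.6 and 10.3, and passed only without alg-1(gk214) replicate 2 (otherwise up to 0.135). fipr-22 had 2.46, 0.440 and 0 FPKM against 12.1, 4.79 and 4.998, and passed only without alg-1(gk214) replicate 1 (otherwise up to 0.169).

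The sperm genes called between the mutants were all higher in alg-1(gk214). Major sperm proteins form the cytoskeleton of crawling nematode sperm and signal to oocytes, and their genes are switched on in the L4 germline. Of 29 tested msp genes, 8 were called higher and 0 lower, beside 0.707% and 0.998% of all genes. Their median difference was 0.98, beside 0.02 over all genes, and 28 of the 29 fitted differences were above 0. The summed level of the list was 1401 to 2126 FPKM in alg-1(gk214), 747.1 to 922.5 in alg-2(ok304) and 3743 to 4623 in wild type. msp-81 had 240.5, 173.0 and 256.6 FPKM in alg-1(gk214) and 66.5, 95.6 and 89.5 in alg-2(ok304), beside 604.4 ± 86.2 in wild type. These groups did not overlap, with a difference of 1.40 (SE 0.178, adjusted p = 0.000919) that passed under every alternative. The msp genes are near-identical copies, so their single values are uncertain. The count of called msp genes without 1 library was 2 without alg-1(gk214) replicate 3, 3 without alg-2(ok304) replicate 1, 4 without alg-2(ok304) replicate 3 and 5 without each of the others.

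Other named msp genes followed msp-81. msp-77 had 76.7 ± 13.9 and 27.5 ± 10.5 FPKM, msp-49 had 50.5 ± 13.7 and 18.5 ± 7.66, and msp-78 had 37.6, 29.1 and 27.4 FPKM against 10.2, 11.1 and 8.73. Their adjusted p of 0.0163, 0.0168 and 0.0429 rose to 0.0805, 0.0845 and 0.133 at most without 1 library. msp-77 lost its call without alg-1(gk214) replicate 3 or alg-2(ok304) replicate 1 or 3, msp-49 without alg-1(gk214) replicate 3, and msp-78 without any 1 of the 6. With only the 6 libraries in the model, msp-77 and msp-49 were not called either (adjusted p of 0.051 and 0.107). Of 57 tested sperm genes other than msp, 1 was called higher and 0 lower, with a median difference of 0.48. It was nspd-2, of a sperm-enriched peptide family, with 210.3, 191.6 and 244.5 FPKM in alg-1(gk214) and 141.5, 129.1 and 122.7 in alg-2(ok304), beside 563.8 ± 32.7 in wild type (adjusted p = 0.00885, and 0.0507 without alg-2(ok304) replicate 3). The summed level of that list was 1195 to 1762 FPKM in alg-1(gk214), 934.9 to 995.3 in alg-2(ok304) and 2797 to 3617 in wild type.

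The few called egg genes were also higher in alg-1(gk214), and no yolk gene was called. Of 30 tested oocyte and eggshell genes, 3 were called higher and 0 lower, beside 0.707% and 0.998% of all genes. Their median difference was 0.50, with 27 fitted differences above 0. nos-2, a Nanos relative of the germline, had 4.23, 3.29 and 5.74 FPKM in alg-1(gk214) and 1.40, 0.219 and 0.0416 in alg-2(ok304), beside 0.0182 ± 0.0315 in wild type. perm-4, needed for the eggshell permeability barrier, had 7.67 ± 1.97 and 1.69 ± 0.690 FPKM, and cpg-2, a chondroitin proteoglycan of the eggshell, had 47.6 ± 7.14 and 23.2 ± 3.04. The mutants did not overlap at these 3 genes (adjusted p of 0.0226, 0.034 and 0.0427). nos-2 lost its call without alg-1(gk214) replicate 1 or 3 or alg-2(ok304) replicate 2 or 3 (up to 0.0869), perm-4 without any 1 library but alg-1(gk214) replicate 2 (up to 0.114), and cpg-2 without any 1 of the 6 (up to 0.135). The list kept 0 calls without alg-1(gk214) replicate 1 or 3 or alg-2(ok304) replicate 2 or 3, 1 without alg-2(ok304) replicate 1 and 2 without alg-1(gk214) replicate 2.

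None of the 9 yolk genes was called by limma, beside 0.707% of all tested genes called higher and 0.998% lower. An unadjusted p under 0.05 was found for 8, beside 2158 of all 14430 tested genes. The median difference was 0.77, and 1 yolk gene was called without a mean-variance trend. vit-5, a vitellogenin, had 14.3, 14.7 and 17.1 FPKM in alg-1(gk214) and 5.36, 6.34 and 10.9 in alg-2(ok304), beside 0.0328 ± 0.0104 in wild type. vit-2 had 13.2, 12.7 and 15.3 FPKM against 3.50, 5.99 and 10.7, beside 3.99 ± 0.734. These are the 2 of 6 vitellogenins at which the mutants did not overlap, beside 10.3% of all tested genes that lay apart with alg-1(gk214) higher. Their differences were 0.99 (SE 0.304, adjusted p = 0.122) and 1.04 (SE 0.323, adjusted p = 0.129). Both were chosen after their values were seen. The other 4 vitellogenins overlapped, with differences from 0.69 to 0.93. ceh-60, a homeobox factor that regulates yolk genes, went the other way, at 9.54, 8.68 and 7.17 FPKM against 11.8, 11.6 and 13.9 (-0.51, adjusted p = 0.212). The 20 tested genes of the sperm to oocyte switch and the 29 of germline mitosis and meiosis had 0 calls, with 2 and 2 at an unadjusted p under 0.05 and median differences of 0.10 and 0.07. Of 10 male-specific genes 1 was tested, and their summed level was 0.777 to 1.83 FPKM in alg-1(gk214) and 2.03 to 6.06 in alg-2(ok304). Of 11 embryo genes 3 were tested, with sums of 44.7 to 65.7 and 38.5 to 44.3 FPKM, and 5 of the 11 were at 0 in all 6 libraries. Their part in the differences of the germline lists was not tested.

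Several genes of the uterine lumen were called higher in alg-1(gk214). Of 17 tested genes of uterus, vulva and somatic gonad, 3 were called higher and 0 lower, beside 0.707% and 0.998% of all genes. All 3 were ule genes, which encode secreted proteins of the uterus. ule-3 had 25.8, 21.3 and 29.8 FPKM in alg-1(gk214) and 3.07, 4.65 and 7.94 in alg-2(ok304), beside 0.0322 ± 0.0557 in wild type. The difference was 2.16 (SE 0.347, adjusted p = 0.00623). ule-4 had 116.8 ± 38.7 FPKM against 28.0 ± 6.15 (adjusted p = 0.0464), and ule-5 had 47.2, 33.8 and 27.1 against 9.07, 7.90 and 8.79 (adjusted p = 0.019) and was listed at 0 in all wild type libraries. In all 3 genes alg-1(gk214) lay above the other 12 libraries. The call of ule-4 was lost without any 1 of the 6 libraries (up to 0.156) and that of ule-5 without alg-1(gk214) replicate 1 or any alg-2(ok304) library (up to 0.0754). ule-3 kept its call without each library, but with a pseudocount of 0.1 FPKM none of the 17 genes was called by limma (0.213 for ule-3). The list held 1 call without alg-1(gk214) replicate 1 or any alg-2(ok304) library and 2 without alg-1(gk214) replicate 2 or 3.

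**Figure D5:**
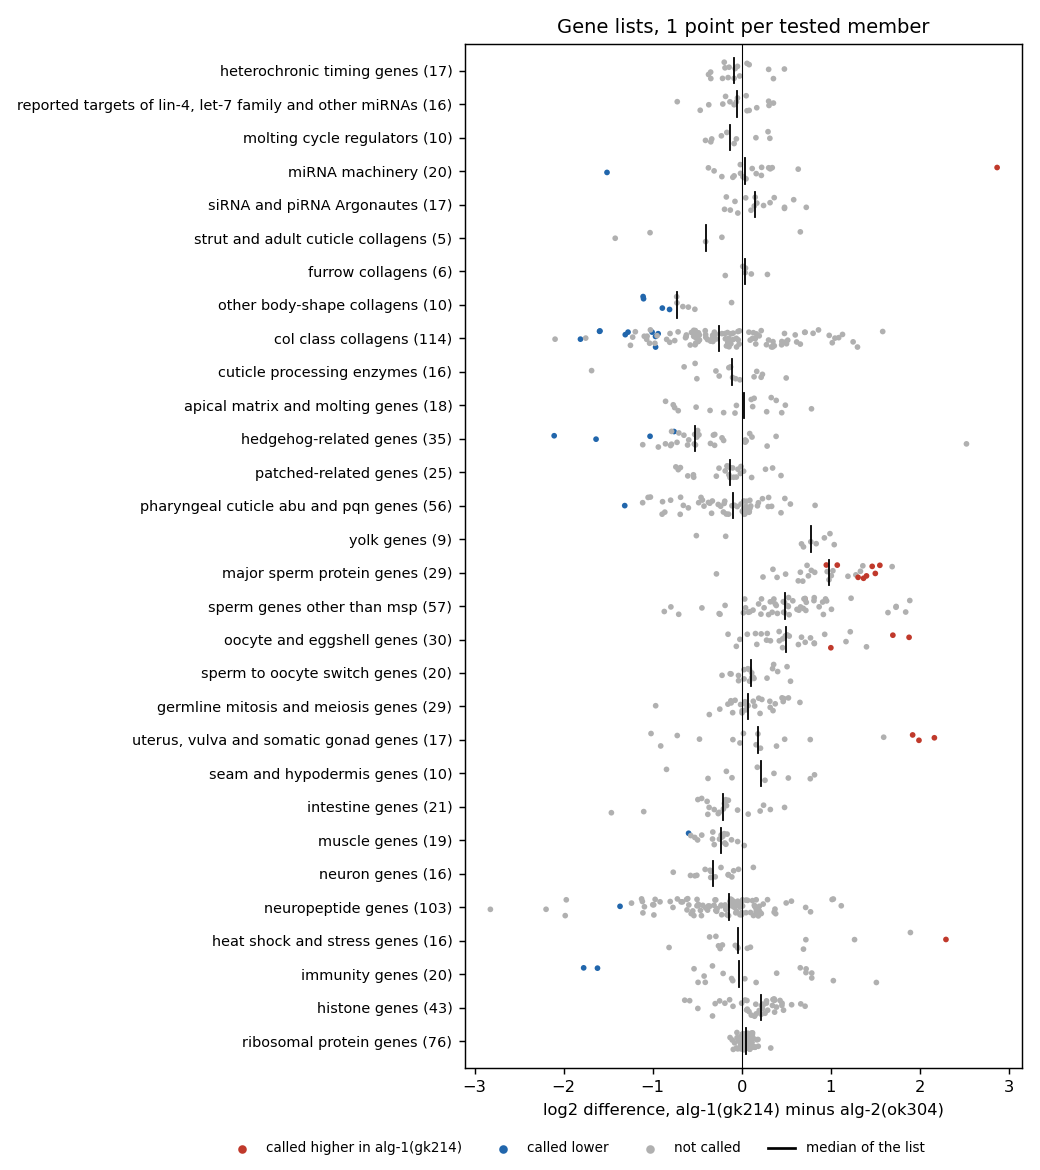
Differences of the tested members of 30 gene lists on the log2(FPKM + 1) scale, alg-1(gk214) minus alg-2(ok304), with the number tested in brackets and a bar at each median. The medians of the major sperm protein, yolk, oocyte and other sperm lists lie right of 0, those of the body-shape collagens and hedgehog-related genes lie left of 0, and most members are grey, not called.

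All called cuticle collagens were lower in alg-1(gk214). The cuticle is rebuilt at each molt from collagens made in waves, and the body-shape genes are named for the dumpy, squat, long or roller worms that their mutations give. Of 10 tested body-shape collagens other than the furrow genes, 4 were called lower and 0 higher, beside 0.998% and 0.707% of all genes. Their median difference was -0.73 and all 10 differences were below 0. dpy-4 had 952.9, 1031 and 747.1 FPKM in alg-1(gk214) and 2221, 1772 and 1854 in alg-2(ok304), beside 1463 ± 113 in wild type. Its groups did not overlap, with a difference of -1.10 (SE 0.198, adjusted p = 0.0123). dpy-13 had 743.5 ± 148.3 and 1588 ± 145 FPKM, dpy-5 had 656.3 ± 112.1 and 1211 ± 136, and sqt-1 had 370.0 ± 57.8 and 644.7 ± 24.1, beside 1015 ± 93.0 in wild type (adjusted p of 0.0267, 0.0449 and 0.0434). The summed level of the list was 3530 to 4575 FPKM in alg-1(gk214) and 7138 to 8596 in alg-2(ok304), beside 7450 to 9756 in wild type. These calls were close to the threshold. dpy-4 lost its call without alg-1(gk214) replicate 3 or alg-2(ok304) replicate 1 (up to 0.0669), dpy-13 without any 1 library but alg-1(gk214) replicate 2 (up to 0.108), and dpy-5 and sqt-1 without any 1 of the 6 (up to 0.158 and 0.155). The list held 0 calls without alg-1(gk214) replicate 3 or alg-2(ok304) replicate 1, 2 without alg-1(gk214) replicate 2 and 1 without each of the others.

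Among the other collagens, calls were in the col class. Of 114 tested col genes, 9 were called lower and 0 higher, beside 0.998% and 0.707% of all genes, with a median of -0.26. col-133 had 186.6, 154.7 and 131.0 FPKM in alg-1(gk214) and 532.5, 422.2 and 472.0 in alg-2(ok304), with wild type lower than both at 85.6 ± 5.51. col-157 had 93.9, 111.8 and 63.5 FPKM against 302.4, 237.6 and 260.2, with wild type again lowest at 44.9 ± 6.40. Both were highest in alg-2(ok304) among all libraries, with differences of -1.60 (SE 0.185, adjusted p = 0.00041) and -1.59 (SE 0.198, adjusted p = 0.000782) that passed under every alternative. col-162 had 164.3 ± 49.0 and 404.0 ± 105.9 FPKM, beside 57.7 ± 11.7 in wild type, and lost its call without alg-1(gk214) replicate 3 or alg-2(ok304) replicate 1 or 3 (up to 0.0822). col-153 had 6.45 ± 2.40 and 25.6 ± 9.64 FPKM, beside 53.6 ± 27.8, and lost it without alg-1(gk214) replicate 2 or 3 or alg-2(ok304) replicate 2 or 3 (up to 0.0926). Without 1 library, 3 to 8 col genes were called lower, with 8 without alg-1(gk214) replicate 1 or alg-2(ok304) replicate 2, 6 without alg-1(gk214) replicate 2, 4 without alg-2(ok304) replicate 1 and 3 without either remaining library. The 6 furrow collagens had a median of 0.04 and 0 calls, with 0 at an unadjusted p under 0.05, and summed to 621.4 to 778.9 FPKM in alg-1(gk214) and 649.0 to 695.0 in alg-2(ok304), beside 1679 to 2164 in wild type. The 5 strut and adult collagens had 0 calls as well, with 2 at an unadjusted p under 0.05, and summed to 120.3 to 193.0 and 160.0 to 261.3 FPKM beside 1649 to 2370 in wild type.

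Hedgehog-related genes, a large nematode family of secreted proteins tied to the molting epidermis, had calls in the same direction. Of 35 tested, 4 were called lower and 0 higher, beside 0.998% and 0.707% of all genes, and the median was -0.52. grl-16 had 196.8, 189.9 and 129.7 FPKM in alg-1(gk214) and 439.5, 296.2 and 319.7 in alg-2(ok304), and grd-5 had 504.0, 457.4 and 325.8 against 778.3, 668.1 and 704.5. Wild type was at 84.9 ± 15.8 and 424.1 ± 49.3 FPKM. Both genes were highest in alg-2(ok304), with differences of -1.03 (SE 0.222, adjusted p = 0.034) and -0.76 (SE 0.155, adjusted p = 0.0245). grd-12 had 2.16, 4.47 and 0.422 FPKM against 15.5, 6.68 and 14.5 (adjusted p = 0.0454), and grl-14 had 0, 0 and 0.164 against 1.90, 2.13 and 2.86 (adjusted p = 0.0496). grl-16 and grl-14 lost their calls without any 1 of the 6 libraries (up to 0.131 and 0.147), grd-5 without alg-1(gk214) replicate 3 or any alg-2(ok304) library (up to 0.1), and grd-12 without alg-1(gk214) replicate 1 or 3 or alg-2(ok304) replicate 1 or 3 (up to 0.154). The list held 2 calls without alg-1(gk214) replicate 2, 1 without alg-1(gk214) replicate 1 or alg-2(ok304) replicate 2, and 0 without each of the others. Of the other epidermal lists, the 25 patched-related genes, 16 cuticle-processing enzymes, 18 apical matrix and molting genes and 10 seam and hypodermis genes had 0 calls, with 4, 3, 6 and 1 at an unadjusted p under 0.05. Of 56 abu and pqn genes of the pharyngeal cuticle, pqn-72 was called lower, at 10.7 ± 2.67 against 28.2 ± 6.60 FPKM (adjusted p = 0.0469, lost without any 1 of the 6 libraries, up to 0.16).

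In each of the other tissue lists 1 gene or none was called, beside 0.707% of all tested genes called higher and 0.998% lower. Of all 14430 tested genes, 2158 had an unadjusted p under 0.05. Of 19 muscle genes, unc-54, the main myosin heavy chain of body wall muscle, was called lower, with 612.0, 744.2 and 775.6 FPKM in alg-1(gk214) and 1008, 1052 and 1155 in alg-2(ok304), beside 717.5 ± 55.6 in wild type. The mutants did not overlap (-0.60, SE 0.106, adjusted p = 0.0115, and 0.0609 without alg-2(ok304) replicate 3), and the call was also lost with only the 6 libraries, quantile normalization or no mean-variance trend (up to 0.0759). The muscle median was -0.23, 18 of the 19 differences were below 0 and 9 had an unadjusted p under 0.05. A replicate block called 5 muscle genes lower, and array weights and scaling to a common median 3 each. The 16 neuron and 21 intestine genes had 0 calls, and 15 and 16 of them had differences below 0. They had 3 and 10 at an unadjusted p under 0.05, with medians of -0.32 and -0.21. Their sums were 556.9 to 623.1 FPKM against 620.3 to 731.7 for neurons, and 14610 to 14950 against 15880 to 19070 for intestine. Of 103 neuropeptide genes, nlp-20 was called lower, at 115.9 ± 8.47 against 304.9 ± 69.3 FPKM (adjusted p = 0.0282, lost without any 1 of the 6 libraries, up to 0.11). The 76 ribosomal protein genes had a median of 0.05 and the 43 histone genes 0.22, with 0 calls each and 0 and 6 at an unadjusted p under 0.05.

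In the stress list 1 gene was called and in the immunity list 2, beside 0.707% of all tested genes called higher and 0.998% lower. Of 16 tested heat shock and stress genes, hsp-16.2 was called higher and none lower, and the median was -0.05, turning to 0.10 under quantile normalization. hsp-25, described above, was not in that list. Of 20 immunity genes, 2 were called lower and 0 higher, and both are genes known to be induced by bacterial infection. The list itself split evenly, with 10 differences above 0 and 10 below. Its median was -0.03 and single differences ran from -1.78 to 1.51. An unadjusted p under 0.05 was found for 9, beside 2158 of all 14430 tested genes. Over the alternatives the median ran from -0.14 to 0.10. With array weights 1 immunity gene was called higher, and without alg-2(ok304) replicate 2 also 1. dod-24 had 23.0, 29.3 and 21.04 FPKM in alg-1(gk214) and 68.0, 103.6 and 88.1 in alg-2(ok304), beside 148.0 ± 36.0 in wild type. irg-5 had 40.8, 32.9 and 30.0 FPKM against 111.0, 122.5 and 91.1, beside 104.2 ± 33.6. In both, alg-1(gk214) lay below all other libraries, with differences of -1.78 (SE 0.199, adjusted p = 0.000354) and -1.62 (SE 0.225, adjusted p = 0.00188) that held under all alternatives.

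Gene families were ranked by the share of their tested members that was called, among 136 with at least 10. Highest for genes called higher were msp (8 of 29), alh (2 of 12), gst (6 of 38), hsp (2 of 20), asp (1 of 11) and cpg (1 of 11). For genes called lower they were spig (4 of 15), grd (2 of 10), asp (2 of 11), acdh (2 of 13), grl (2 of 14) and dpy (3 of 24). The background was 0.707% and 0.998%. Of the 12 alh genes 1 was called lower. Among the families ranked for genes called higher, the medians of alh, asp and cpg lay below 0 (-0.179, -0.195 and -0.104). Those of msp, gst and hsp lay above 0 (0.978, 0.232 and 0.0794). acdh-2, an acyl-CoA dehydrogenase gene, had 43.7, 40.3 and 34.5 FPKM in alg-1(gk214) and 105.4, 95.3 and 88.4 in alg-2(ok304) (-1.27, SE 0.181, adjusted p = 0.0023), with wild type between at 53.3 ± 4.49. alh-5, an aldehyde dehydrogenase gene, had 50.1 ± 6.84 against 26.9 ± 3.60 FPKM and lost its call without alg-1(gk214) replicate 1 or 2 or alg-2(ok304) replicate 1 or 3 (0.0245, up to 0.102). asp-17, an aspartyl protease gene, had 12.7 ± 2.36 against 4.62 ± 0.871 FPKM and lost it without any 1 library but alg-1(gk214) replicate 2 (0.0294, up to 0.107).

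Genes that other small RNA pathways use were not called more often than the background. Of 3573 tested genes of the deposited CSR-1 siRNA table, 13 were called higher and 13 lower (0.364% each), and of 1383 genes of the Mutator siRNA table, 9 were higher and 9 lower (0.651% each). CSR-1 is an Argonaute that marks genes expressed in the germline, and the Mutator complex amplifies siRNAs that silence. In the CSR-1 table, alg-2 and nos-2 were joined by hach-1, with 228.8, 221.2 and 185.5 FPKM in alg-1(gk214) against 410.7, 434.8 and 426.9 (SE of the difference 0.105, adjusted p = 0.000197), and by C01G6.3, at 3.56 ± 2.05 against 0.319 ± 0.311 (adjusted p = 0.0445). In the Mutator table, anc-1 and Y102A5C.36 were joined by C38D9.2, with 22.3, 30.0 and 25.1 FPKM against 4.42, 5.22 and 6.49 (2.07, SE 0.268, adjusted p = 0.00104), and by Y87G2A.16, at 15.1 ± 1.30 against 4.02 ± 1.87 (adjusted p = 0.019). hach-1 and C38D9.2 kept their calls under every alternative, C01G6.3 lost it without any 1 library but alg-1(gk214) replicate 2 (up to 0.132), and Y87G2A.16 without alg-1(gk214) replicate 2 or 3 or alg-2(ok304) replicate 1 or 3 (up to 0.0869). Without 1 library, 5 to 8 genes of the CSR-1 table were called higher and 2 to 9 lower, fewest without alg-2(ok304) replicate 3, and 4 to 7 and 6 to 11 of the Mutator table, fewest without alg-1(gk214) replicate 3. For the CSR-1 table, only the 6 libraries gave 7 higher and 5 lower, no mean-variance trend 11 and 4, array weights 28 and 29, and a replicate block 24 and 24. The 17 tested siRNA and piRNA Argonautes had 0 calls, with 3 at an unadjusted p under 0.05, and a median of 0.15.

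Small RNA of the same mutants was sequenced in adults at 68 h, 1 library each, so these values carry counting error only and no test. Reads were recovered from RPM (reads scaled to the library total), with totals of 3073089 in alg-1(gk214) and 1982430 in alg-2(ok304). Of 3 adult wild type libraries, that of the same experiment number in the file headers, replicate 2, had 1622092 reads, and replicates 1 and 3 had 11483791 and 8388498. lin-4-5p, the microRNA that represses lin-14, had 1368 RPM in alg-1(gk214) (Wilson 95% interval 1328 to 1410) and 3602 in alg-2(ok304) (3519 to 3686). Wild type had 2374 RPM in replicate 2 (2300 to 2450) but 615.2 and 525.5 in replicates 1 and 3. let-7-5p had 36.8 RPM in alg-1(gk214) (30.6 to 44.2) and 37.8 in alg-2(ok304) (30.2 to 47.4), with overlapping intervals. Wild type had 30.2 RPM of let-7-5p in replicate 2 (22.9 to 39.9), beside 321.1 and 535.1 in the other replicates. The wild type libraries thus differed widely from each other at both microRNAs, and no order of the genotypes is read from these values. miR-48-5p, of the let-7 family, had 376.5 RPM in alg-1(gk214) (355.4 to 398.8) and 457.0 in alg-2(ok304) (428.2 to 487.8), beside 251.5, 1500.0 and 1012 in wild type replicates 2, 1 and 3. miR-84-5p, of the same family, had 15.6 and 22.7 RPM in the mutants and 25.3, 88.4 and 128.9 in these wild type libraries. miR-241-5p was at 0 reads in alg-1(gk214), which allows up to 0.976 RPM at a limit of 3 reads (Wilson upper limit 1.25). It was at 1 read, or 0.504 RPM, in alg-2(ok304). Wild type replicate 2 had 4 reads, or 2.47 RPM, and replicates 1 and 3 had 5.92 and 6.8 RPM. All microRNAs together summed to 115700 RPM in alg-1(gk214) and 199800 in alg-2(ok304), beside 175600 to 191200 in wild type.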

How the data were processed

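The authors deposited L4 mRNA values as FPKM per gene and library, estimates in the form Cuffdiff writes, per the file headers. Trimmomatic 0.35, TopHat2, HTSeq, DESeq2 and Cuffdiff are named, without roles, in the submitters' processing notes, and the genome build and annotation are not given in the sources used here. Per the labels' protocols, RNA was depleted of ribosomal RNA, fragmented and sequenced with strand kept by dUTP. FPKM are not counts, and an exact 0 can be a failed estimate, so a gene at 0 throughout a group is given as listed at 0, with no fold.

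Genes whose mean reached 1 FPKM in either mutant were tested as log2(FPKM + 1) in limma 3.58.1 (R 4.3.3) with a mean-variance trend. All 15 L4 libraries were in 1 model, with 10 residual and 3.80 prior degrees of freedom, and the contrast took the 6 libraries of the mutants. The test was checked on simulated data. Symbols came from RefSeq, where 20063 of 20517 genes matched.

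The comparison, the gene lists and the members named were chosen with earlier results of these data known. Lists are described by counts and medians, with no test. Named are the Argonaute and timing genes, the tested neighbours of alg-1 and alg-2, and the 15 largest differences in each direction among called genes that reached a mean of 5 FPKM in 1 mutant, with no overlap of libraries (no more than 2 from a gene class and 4 known by a sequence name). Up to 4 called members per list and 1 per leading gene class were added. Replicate numbers were not used to pair libraries. Alternatives were the libraries in the model, the pseudocount, the filter, zeros, scaling, array weights, the variance trend, the replicate block and leaving out each library.

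The authors deposited small RNA values as RPM, reads scaled to the library total, per the file headers. In the 5 adult libraries used, 99.1% to 99.4% of piRNA values were whole reads within 0.02 of a read. Wilson intervals and the limit of 3 reads for a count of 0 cover counting error only. The deposited siRNA tables served as gene lists, and the other 13 small RNA columns were not used.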

Additional observations from a re-analysis of the deposited data

How the results depend on the processing

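With only the 6 libraries in the model, 62 genes were called higher and 92 lower, in place of 102 and 144. Of these, 49 and 65 were also called in the main fit. limma's array weights gave 169 and 287, of which 98 and 142 were also called in the main fit. Leaving out 1 library gave 46 to 76 higher and 59 to 116 lower: 54 higher without alg-1(gk214) replicate 1, 51 and 65 without alg-1(gk214) replicate 3, 52 and 78 without alg-2(ok304) replicate 1, 65 and 69 without alg-2(ok304) replicate 2, and 46 and 59 without alg-2(ok304) replicate 3. Each such fit has fewer samples, and no other cause was tested. The other settings kept both counts within 1.5 times, from 87 higher (a pseudocount of 0.1 FPKM) and 114 lower (no variance trend) to 138 higher and 213 lower (a replicate block). Same-numbered libraries of the mutants deviated together only weakly (correlations of 0.0226, 0.00867 and 0.0384), although each correlated best with its own number, so the numbers were not taken as pairs.

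Of 65 named genes that were called, 25 lost the call with only the 6 libraries, 13 without a mean-variance trend, 10 with a pseudocount of 0.1 FPKM, 10 without a filter, 4 with quantile normalization, 4 with a replicate block, 2 with array weights, 2 with the filter on any of the 5 genotypes and 17 to 33 without 1 library. No named gene changed direction while called, and alg-1, alg-2, hsp-25, clec-47 and msp-81 kept their calls under all alternatives. Over the 17 alternatives, called msp genes numbered 2 to 9, other sperm genes 0 to 4, oocyte genes 0 to 5, uterus genes 0 to 3 higher, body-shape collagens 0 to 6 lower, col genes 3 to 13 and hedgehog-related genes 0 to 4. The medians of these lists kept their sign in every setting. The read depth of the mRNA libraries is unknown, and 3 libraries per mutant limit what can be called.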

Other observations

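Genes of a metabolic pathway lay lower in alg-1(gk214), of which hach-1 was named above from the CSR-1 table. They were grouped after their values were seen, so the group has no test of its own. The shunt that breaks down propionate runs through acdh-1, ech-6, hach-1, hphd-1 and alh-8. Of these 5 genes 4 were called lower by limma, beside 0.998% of all tested genes. acdh-1, the acyl-CoA dehydrogenase gene at its start, had 1795, 1603 and 1599 FPKM in alg-1(gk214) and 2755, 2958 and 2687 in alg-2(ok304), beside 2691 ± 406 in wild type (-0.75, SE 0.116, adjusted p = 0.00482). alh-8, at its end, had 575.5, 670.1 and 657.3 FPKM against 976.8, 1066 and 1020 (adjusted p = 0.00114), and hphd-1 had 432.3 ± 33.1 against 632.7 ± 17.6 (adjusted p = 0.00775). ech-6 was not called, with 745.1 ± 114.6 against 1097 ± 92.5 FPKM (adjusted p = 0.0573). At all 5 genes alg-1(gk214) lay below alg-2(ok304) with no overlap, as at 10.7% of tested genes, and the 4 calls held without any 1 of the 6 libraries (adjusted p up to 0.0379).

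Of 3 histidine breakdown genes, also grouped afterwards, haly-1, which encodes histidine ammonia-lyase, had 43.5, 34.0 and 29.4 FPKM against 99.5, 120.0 and 101.1 (-1.57, SE 0.183, adjusted p = 0.000413). uroc-1, for urocanate hydratase, had 13.7, 9.70 and 9.17 FPKM against 26.2, 32.5 and 32.3 (adjusted p = 0.00833). amdh-1 had 8.80 ± 2.16 against 11.1 ± 3.96 FPKM and was not called (adjusted p = 0.732). Over all tested genes 0.998% were called lower.

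The most extreme fitted differences were not called. Of genes that differed by over 8-fold, 8 higher and 15 lower did not pass, and in 16 of these 23 a mutant had a library listed at 0 beside one of at least 100 FPKM. Y17D7B.10, for example, had 35978 FPKM in alg-1(gk214) replicate 2 and was listed at 0 in the other 5 libraries. No called gene had such a pair of libraries. C45B2.3 was listed at 0 in all 3 alg-1(gk214) libraries and had 17.0, 5.81 and 5.73 FPKM in alg-2(ok304), but it was also at 0 in 1 wild type library and was not called (adjusted p = 0.169).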
